A study of Mus musculus with 20 samples.

Results

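The nuclear-encoded respiratory chain genes are the genes of the cell nucleus that code for the mitochondrial electron transport complexes, the ATP synthase, cytochrome c and some of their assembly factors. They were taken by symbol. The symbols had to start with Nduf, Uqcr or Atp5, to be Sdha, Sdhb, Sdhc or Sdhd, to start with Cox4 to Cox8 followed by a letter, or to be Cycs or Cyc1. Pseudogene names holding -ps and genes under 5 mean counts relative to library size (CPM) were left out. Of 41115 genes in the tables, 94 symbols met the name rule and 85 were kept.

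Messenger RNA was measured in mouse spleen samples of 2 arms, 10 libraries each, at 0, 15 and 30 min and 1, 2, 3, 6, 12, 24 and 48 h. The stimulated arm received lipopolysaccharide (LPS, sensed through Toll-like receptor 4) with interleukin 4 and TGFb, a mix used to induce AID, the enzyme of antibody class switching, and the untreated arm received none of these. The design names 1 treated and 1 untreated mouse, with 1 library per arm and time. Arm and animal therefore cannot be told apart, and the sources used here give no strain, sex or age. Times stand in for replicates: 15 min, 30 min and 1 h form the early phase, 2, 3 and 6 h the middle phase, and 12, 24 and 48 h the late phase. Errors and p-values thus measure the spread between times, not between animals. Call rules and changes below come from edgeR's quasi-likelihood test with Benjamini-Hochberg adjustment over all genes tested, at a threshold of 0.05.

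Complexes I and II pass electrons from NADH and succinate to ubiquinone, complex III hands them to cytochrome c, and complex IV passes them to oxygen. Complexes I, III and IV pump protons, and the ATP synthase (complex V) uses the proton gradient to make ATP. Resting B cells, the main lymphocyte of the spleen that switches antibody class, have little cytoplasm and enlarge their mitochondrial capacity when activated.

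Several members are known targets of the factors NRF1 and GABPA, which in many mammalian cells act on promoters of respiratory genes, so the promoters of 5 members that changed between the early and the late phase are shown, 4 that rose and 1 that fell, picked after their values were seen. They are the 150 bases before the annotated start in RefSeq on GRCm38.p6, 5′ to 3′ on the gene's strand, for Cycs (chr6:50566570-50566719, minus strand), Uqcrh (chr4:116075071-116075220, minus), Cox6b1 (chr7:30626115-30626264, minus), Atp5k (chr5:108434400-108434549, minus) and Ndufaf1 (chr2:119662835-119662984, minus). The first 4 rose in both arms and Ndufaf1 fell. Capitals mark the exact letters of a motif: the GABPA motif CCGGAAG, which reads CTTCCGG on the other strand, the longer palindromic NRF1 motif, which is the run in capitals in Atp5k, and the motif of YY1, a further factor, which is the run in capitals in the 30-base site of Ndufa9 (chr6:126849095-126849124, minus).
Cycs: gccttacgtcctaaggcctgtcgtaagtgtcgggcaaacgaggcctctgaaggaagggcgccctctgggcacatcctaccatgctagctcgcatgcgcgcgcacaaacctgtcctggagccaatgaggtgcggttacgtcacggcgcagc
Uqcrh: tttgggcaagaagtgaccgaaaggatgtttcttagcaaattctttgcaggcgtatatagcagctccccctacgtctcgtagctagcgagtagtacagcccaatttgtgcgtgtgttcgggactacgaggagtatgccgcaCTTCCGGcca
Cox6b1: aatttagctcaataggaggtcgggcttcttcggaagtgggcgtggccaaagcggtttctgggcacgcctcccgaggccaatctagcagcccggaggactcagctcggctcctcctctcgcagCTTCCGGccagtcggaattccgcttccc
Atp5k: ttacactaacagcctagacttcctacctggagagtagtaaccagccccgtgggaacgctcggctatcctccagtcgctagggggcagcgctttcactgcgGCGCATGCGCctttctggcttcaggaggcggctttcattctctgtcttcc
Ndufaf1: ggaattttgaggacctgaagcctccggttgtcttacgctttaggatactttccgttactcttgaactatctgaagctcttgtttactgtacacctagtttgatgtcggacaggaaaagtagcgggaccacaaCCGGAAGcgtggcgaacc
Ndufa9 site: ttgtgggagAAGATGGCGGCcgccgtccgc
Uqcrh and Cox6b1 held a GABPA match on the opposite strand beginning 10 and 28 bases before the start, and Ndufaf1, which fell, held one on its own strand 18 bases before it. Atp5k held the NRF1 letters 50 bases before the start and a GABPA match 12 bases after it. The YY1 letters of Ndufa9, an accessory subunit of complex I, began 29 bases after the start. Cycs held none of the exact letters within the 300 bases searched, though its run tcgcatgcgc differs from the NRF1 motif by 1 letter. Near matches were not searched for.

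Promoters of 300 bases (250 before and 50 after the start) were matched for 71 of the 85 members. A gene with several annotated starts was counted once if any of its promoters held the letters. Such genes thus had more sequence searched. The NRF1 letters stood in 7 of the 71 members (9.86%). They stood in 2.51% of the 9179 genes tested here that had a promoter and in 1.07% of all 27025 genes with one. The GABPA letters stood in 17 members (23.9%), against 21.3% and 9.93%. The YY1 letters stood in 5 members (7.04%), against 1.93% and 0.755%. Both strands were searched. At least 1 motif was present in 27 members, of which 21 rose and 1 fell between the early and the late phase in stimulated libraries, with a median log2 fold change of 0.41. Of the 44 members without any match 34 rose and 1 fell, with a median of 0.45. In untreated libraries 21 rose and 1 fell with a motif, with a median of 0.39, and 33 rose and 2 fell without one, with a median of 0.37. A match is a run of letters and no measured binding.

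Members differed widely in level. Per kilobase of transcript, Atp5b, the catalytic beta subunit of the ATP synthase, was highest at 1048 CPM per kb over the 20 libraries. It was followed by Atp5a1, the alpha subunit, at 548, Cox4i1, a regulatory subunit of complex IV, at 399.9, and Atp5g3, a gene for the c subunit of the proton-driven ring, at 391 CPM per kb. The median level was 216 CPM per kb for the 5 subunits of the F1 head of the synthase and 172 for the 10 of its membrane and stalk parts. It was 170.2 for the 12 of complex IV, 141 for the 9 of complex III and 115 for the 4 of complex II. Complex I was lower per length, at 60.7 for its 7 core subunits and 65.1 for 27 accessory subunits, and its 7 assembly factors had 16.8 CPM per kb. The remaining members are cytochrome c itself (Cycs), the supercomplex factor Cox7a2l, and Atp5s and Atp5sl, which carry an Atp5 name without being core subunits.

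The threshold of 5 mean CPM kept Atp5l (subunit g of the synthase) at 5.30 CPM and left out Ndufb4, an accessory subunit of complex I, at 2.36 CPM. Among the 9 symbols left out, Cox4i2 and Ndufa4l2, isoforms known from lung and from low oxygen, averaged 0.0364 and 0.180 CPM. Cox7a1, the heart and muscle isoform of subunit 7a, averaged 0.422 CPM. Ndufa7, an ordinary accessory subunit of complex I, had 1 count in all 20 libraries together. In the annotation 0.46% of the 50-base stretches of its transcripts are shared with other genes, and 0 genes overlap its exons. Of the 50-base stretches of Ndufb4 transcripts 18.3% are shared with other genes. The part of shared sequence and of the counting in these low values was not tested.

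Summed over the 85 members, the level was nearly the same in both arms at 0 min and highest at 24 h. The sum was 9361 CPM at 0 min, 9823 at 1 h, 11737 at 6 h, 12945 at 12 h, 14496 at 24 h and 12199 at 48 h in stimulated libraries. It was 9461 CPM at 0 min, 9764 at 1 h, 11030 at 6 h, 11922 at 12 h, 13877 at 24 h and 12232 at 48 h in untreated libraries. Both arms thus followed the same course, with little change in the first hour and a lower sum at 48 h than at 24 h. These CPM are scaled by TMM, whose factors fell from 1.09 at 0 min to 0.898 (stimulated) and 0.928 (untreated) at 24 h. As a share of all counts the rise was smaller. The members held 1.02% at 0 min, 1.30% at 24 h and 1.23% at 48 h in stimulated libraries. In untreated libraries they held 1.03%, 1.29% and 1.24%. Of the 85 members, 63 in stimulated and 66 in untreated libraries had their highest value at 24 h. The share of all genes highest at that time is not given here. The median member was 1.46-fold its 0 min level at 24 h in stimulated and 1.43-fold in untreated libraries, while the median log2 ratio of all 9580 genes of at least 5 mean CPM was 0.07 and 0.04. From 24 h to 48 h, 76 members were lower in stimulated and 71 in untreated libraries, with median log2 ratios of -0.19 and -0.17. The median of all genes of at least 5 mean CPM was also below 0 at this step, at -0.06 and -0.05. These single-time values compare 1 library with 1 library and have no test. In bulk samples more cells of a type and more RNA per cell cannot be told apart.

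**Figure D1:**
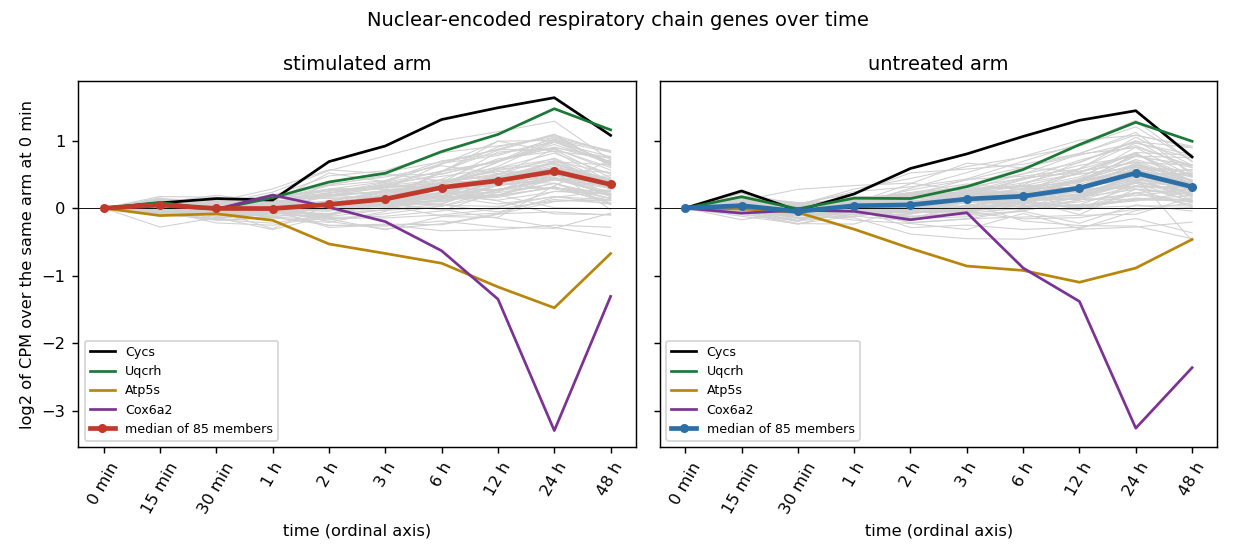
Log2 of the CPM of each of the 85 members over the same arm at 0 min (vertical axis) against time on an ordinal axis, stimulated libraries left and untreated libraries right. Grey lines are single members, the thick line is their median, and 4 members are drawn in colour; the median rises to 0.55 at 24 h in stimulated and 0.52 in untreated libraries, while Cox6a2 and Atp5s lie below 0 from 3 h on.

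Between the early and the late phase 66 members rose and 3 fell in stimulated libraries, where 29.2% of the 12139 genes tested were higher and 25.7% lower. In untreated libraries 64 rose and 4 fell, against 22.6% of all genes higher and 20% lower. The median log2 fold change of the members was 0.42 in stimulated and 0.38 in untreated libraries, against a median near 0 over all genes. Of the members that rose, 61 did so in both arms, which is 92.4% of the 66 and 95.3% of the 64. All 3 late libraries lay above all 3 early ones for 69 of 85 members in each arm, against 35.8% of the 9580 genes of at least 5 mean CPM in stimulated and 32.3% in untreated libraries. With library totals as the only scaling the median of all genes moved by -0.13 in stimulated and -0.12 in untreated libraries, and 50 and 48 members rose while 5 fell in each arm.

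Cytochrome c, the mobile carrier between complexes III and IV, rose most. Cycs had 152, 168 and 114 CPM at 12, 24 and 48 h in stimulated libraries, against 57.1, 59.8 and 58.9 CPM at 15 min, 30 min and 1 h, or 1.31 ± 0.19 on the log2 scale (± SE, here and below; adjusted p = 9.5e-05). In untreated libraries it had 125, 138 and 86.1 CPM in the late phase, against 60.7, 49.6 and 58.9 CPM in the early phase (1.05 ± 0.19; adjusted p = 0.00115). The late and early libraries did not overlap in either arm. Of the 50-base stretches of Cycs transcripts 26.1% also occur in annotated copies, of which Gm13772, the copy present in the tables, averaged 0.0197 CPM.

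Complex III, the cytochrome bc1 complex, rose almost as a whole, with 8 of 9 members higher in stimulated and 9 of 9 in untreated libraries, and class medians of 0.65 and 0.58. Uqcrh, the hinge subunit beside cytochrome c1, had 119, 155 and 125 CPM in late and 59.2, 55.2 and 62.2 CPM in early stimulated libraries (1.18 ± 0.14; adjusted p = 2.6e-05). In untreated libraries Uqcrh had 116, 146 and 120.1 CPM late and 68.0, 60.0 and 67.0 CPM early (0.97 ± 0.14; adjusted p = 0.000383). Every late value of Uqcrh was above every early value. Cyc1, cytochrome c1 itself, rose by 0.82 ± 0.14 in stimulated and 0.70 ± 0.14 in untreated libraries. Uqcrc1 and Uqcrc2, the core proteins, rose by 0.65 ± 0.10 and 0.63 ± 0.09 in stimulated and by 0.58 ± 0.10 and 0.46 ± 0.09 in untreated libraries. Uqcrfs1, the Rieske iron-sulphur protein, rose by 0.34 and 0.31. Uqcrq, a small subunit, passed the test in untreated libraries at 0.26 ± 0.09 and had 0.19 ± 0.09 in stimulated ones (adjusted p = 0.0815). In untreated libraries Uqcrfs1 did not pass without the library of 30 min or 24 h (0.29 and 0.21), nor Uqcrq without that of 15 min, 30 min, 24 h or 48 h (0.26, 0.19, 0.25 and 0.22).

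In complex IV, cytochrome c oxidase, 11 of 12 members rose and 1 fell in each arm, with class medians of 0.46 and 0.38. Cox6b1, a subunit at the contact of the dimer on the outer side, had 160.1, 188 and 157 CPM late and 89.9, 87.4 and 92.9 CPM early in stimulated libraries (0.90 ± 0.11; adjusted p = 2.4e-05). In untreated libraries Cox6b1 had 148, 179 and 157 CPM late and 95.1, 89.6 and 89.6 CPM early (0.82 ± 0.11; adjusted p = 0.000246). Cox7b rose by 0.85 in stimulated and 0.71 in untreated libraries, and Ndufa4, a subunit first assigned to complex I and now placed in complex IV, by 0.85 and 0.73. The more abundant Cox4i1 rose by 0.25 ± 0.07 and 0.26 ± 0.07, and its difference from Cox6b1 was not tested. Cox8a rose by 0.21 and 0.27, and Cox6a1, the general isoform of subunit 6a, by 0.33 and 0.34. These smaller changes depended on single libraries. In stimulated libraries Cox4i1 did not pass without that of 30 min (0.21), nor Cox8a without that of 15 min, 30 min, 1 h or 24 h (0.20, 0.19, 0.20 and 0.16). In untreated libraries Cox4i1 did not pass without that of 30 min or 24 h (0.24 and 0.21), Cox8a without that of 24 h (0.21) and Cox6a1 without that of 30 min (0.28).

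The member of complex IV that fell was Cox6a2, the isoform of subunit 6a known from heart and skeletal muscle. Cox6a2 had 10.5, 2.72 and 10.8 CPM at 12, 24 and 48 h in stimulated libraries, against 27.4, 26.4 and 30.5 CPM in the early phase, a log2 fold change of -1.81 ± 0.44 (adjusted p = 0.00299). In untreated libraries it had 10.7, 2.91 and 5.41 CPM late, against 26.4, 27.3 and 26.9 CPM early (-2.08 ± 0.44; adjusted p = 0.0026). It was lowest at 24 h in both arms, the time at which most members were highest. In the annotation 10.3% of the exon bases of Cox6a2 overlap Itgad, and the strand setting of the counting is not given. Itgad averaged 0.142 CPM, against 19.8 CPM for Cox6a2, and the part of the overlap in the change was not tested.

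The ATP synthase rose in most of its parts. Of the F1 head, 4 of 5 members rose in stimulated and 5 of 5 in untreated libraries, and of the membrane and stalk parts 8 of 10 rose in each arm. Atp5b had 2360, 2627 and 2160 CPM late and 1830, 1813 and 1890 CPM early in stimulated libraries (0.37 ± 0.07; adjusted p = 0.000578), and a log2 fold change of 0.36 ± 0.07 in untreated ones. Atp5a1 rose by 0.43 in stimulated and 0.40 in untreated libraries. The largest changes were in Atp5g3 and Atp5k, the gene of subunit e, which stabilises synthase dimers. Atp5k had 98.8, 111 and 82.8 CPM late and 54.1, 50.9 and 48.0 CPM early in stimulated libraries (0.93 ± 0.14; adjusted p = 0.000116), and rose by 0.97 ± 0.14 in untreated ones.

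The genes Atp5g1, Atp5g2 and Atp5g3 code for the same mature c subunit, and they did not move alike. Atp5g3 had 390.4, 435 and 292 CPM late, against 183, 187 and 209.8 CPM early in stimulated libraries (0.95 ± 0.16; adjusted p = 0.0002). In untreated libraries it had 361, 440.4 and 309.9 CPM late, against 215, 198 and 232 CPM early (0.79 ± 0.16; adjusted p = 0.00172). Atp5g1 rose by 0.73 in stimulated and 0.67 in untreated libraries. Atp5g2 had 101, 109 and 106 CPM late, against 104, 102 and 111 CPM early in stimulated libraries, with a log2 fold change of 0.00 ± 0.07 in both arms. Its late and early libraries overlapped. The difference between the 3 genes was not tested. Of their 50-base stretches, 38.35% in Atp5g2, 11.1% in Atp5g1 and 0% in Atp5g3 are shared with other annotated genes. For Atp5g2 these include Gm10175 and Gm10231, which averaged 0.226 and 0.0623 CPM. For Atp5g1 they include Gm10039, which averaged 7.71 CPM and had 0.80 in stimulated and 0.97 in untreated libraries. The part of shared sequence in these changes was not tested.

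Complex I, the entry point for electrons from NADH, had 6 of 7 core members higher in stimulated and 7 of 7 in untreated libraries. Of its 27 accessory subunits 21 rose and 0 fell in stimulated libraries, and 17 rose and 1 fell in untreated ones. Ndufs1, the large iron-sulphur subunit of the electron path, had 191, 198 and 158 CPM late and 112, 106 and 108 CPM early in stimulated libraries (0.75 ± 0.11; adjusted p = 7.8e-05), and rose by 0.64 ± 0.11 in untreated ones. Ndufv1, which binds NADH and flavin, rose by 0.43 ± 0.07 and 0.48 ± 0.07. Among accessory subunits the largest changes were Ndufb2 in stimulated libraries (0.91 ± 0.14) and Ndufs5 in untreated ones (0.88 ± 0.14). Ndufs5 had 14.8, 16.8 and 14.3 CPM late and 9.23, 7.72 and 7.91 CPM early in untreated libraries, and 21.7% of its 50-base stretches are shared with BC002163. Ndufa6 fell in untreated libraries, with 35.8, 39.2 and 33.9 CPM late and 46.5, 42.1 and 43.4 CPM early (-0.28 ± 0.08; adjusted p = 0.015). In stimulated libraries Ndufa6 had -0.09 ± 0.08 (adjusted p = 0.394). The untreated call did not hold without the library of 15 min (-0.25), or without the filter on low counts (-0.29).

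The 7 assembly factors of complex I, which help to build it without staying in it, split. Of these 4 rose and 1 fell in stimulated libraries, and 3 rose and 1 fell in untreated ones. Ndufaf2, which acts late in assembly, rose by 0.71 ± 0.12 and 0.47 ± 0.12, though 65.7% of its exon bases overlap another annotated gene. Ndufaf1, an early-acting factor, had 38.0, 34.6 and 31.5 CPM late and 43.5, 41.4 and 41.0 CPM early in stimulated libraries (-0.27 ± 0.10; adjusted p = 0.0236). In untreated libraries Ndufaf1 had 34.6, 34.4 and 30.2 CPM late and 40.3, 39.9 and 42.8 CPM early (-0.31 ± 0.10; adjusted p = 0.0178). The late libraries were all below the early ones. This was also so for 30.6% of the 9580 genes of at least 5 mean CPM in stimulated and 29.3% in untreated libraries. Ndufaf1 did not pass without the stimulated library of 24 or 48 h (-0.27 and -0.21), without the untreated library of 1 or 48 h (-0.28 and -0.25), or in either arm without the filter on low counts. Ndufaf4 had log2 fold changes of 0.24 and -0.10, neither past the test.

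Complex II, succinate dehydrogenase, which also works in the citric acid cycle, had 3 of 4 members higher in each arm. Sdhd, one of its 2 membrane anchors, had 219.8, 256 and 185 CPM late and 132, 129 and 134 CPM early in stimulated libraries (0.74 ± 0.13; adjusted p = 0.000361). In untreated libraries Sdhd had 191, 233 and 175 CPM late and 148, 135 and 149 CPM early (0.47 ± 0.13; adjusted p = 0.0111), which did not pass without the library of 24 h (0.35). Sdha, the flavin subunit, and Sdhb, the iron-sulphur subunit, rose by 0.32 and 0.43 in stimulated and by 0.33 and 0.46 in untreated libraries. Sdhc, the other anchor, had 86.3, 93.5 and 94.4 CPM late and 92.2, 89.4 and 88.5 CPM early in stimulated libraries, with log2 fold changes of 0.02 ± 0.08 and -0.02 ± 0.08. Its late and early libraries overlapped, in contrast to those of the other 3 subunits.

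Atp5s, known as coupling factor B and not part of the core synthase, fell. It had 8.99, 7.26 and 12.7 CPM late and 18.7, 19.0 and 17.8 CPM early in stimulated libraries (-0.94 ± 0.19; adjusted p = 0.000887). In untreated libraries Atp5s had 9.16, 10.6 and 14.2 CPM late and 19.4, 18.8 and 15.8 CPM early (-0.67 ± 0.19; adjusted p = 0.0117), which did not pass without the library of 12 h (-0.53). Cox7a2l, which links complexes III and IV into supercomplexes, did not pass the late test (-0.12 ± 0.07 and -0.17 ± 0.07).

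**Figure D2:**
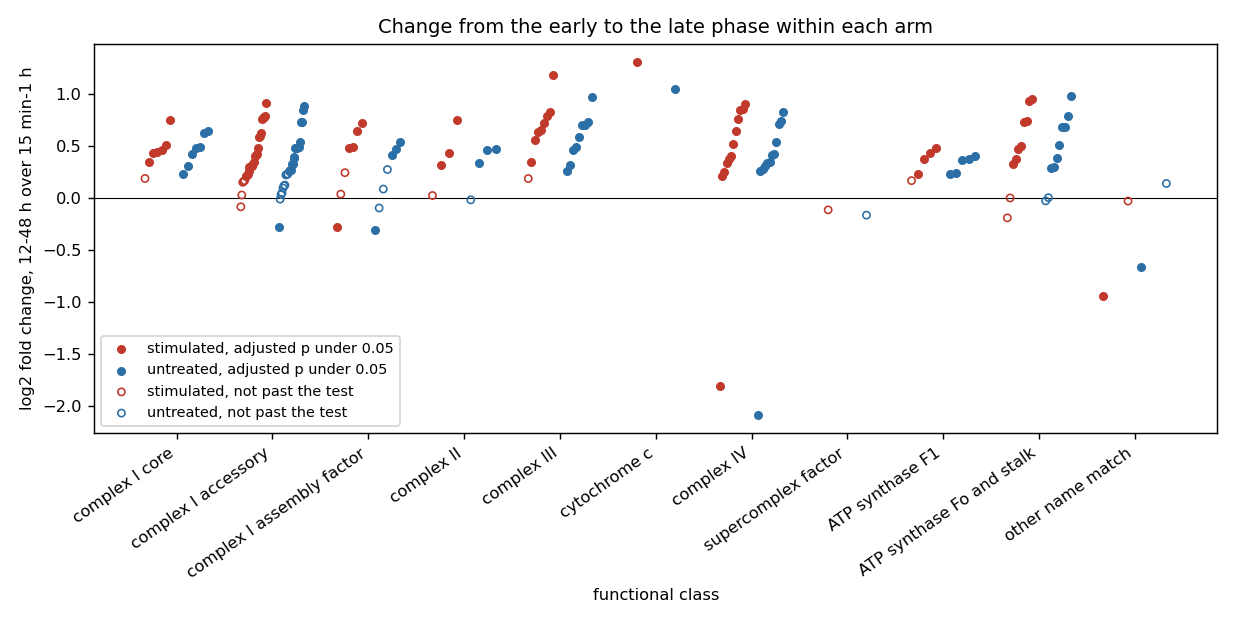
Log2 fold change of the late over the early phase (vertical axis) for each of the 85 members by functional class (horizontal axis), with stimulated libraries left and untreated libraries right in each class. Filled points passed an adjusted p of 0.05 and open ones did not; most points lie between 0 and 1, Cycs is highest at 1.31 and 1.05, and Cox6a2 is lowest at -1.81 and -2.08.

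The change was also read in 2 steps. From the early to the middle phase 17 members rose and 2 fell in stimulated libraries, where 22.1% of all genes were higher and 19.3% lower, so the share of members that rose was close to that of all genes, and the share that fell was below it. In untreated libraries 9 rose and 3 fell, against 13.6% and 11.9% of all genes. Cycs, Cyc1, Atp5g3, Ndufaf2 and Cox6b1 rose in both arms at this step. Cycs already had 87.3, 103 and 135 CPM at 2, 3 and 6 h in stimulated libraries, a middle minus early log2 change of 0.88, and 76.5, 88.8 and 106 CPM in untreated ones, a change of 0.68. Cox7a2l and Atp5s fell in both arms at this step. Cox7a2l had 79.5, 73.7 and 77.7 CPM in middle and 97.6, 93.3 and 89.3 CPM in early stimulated libraries (-0.28), and 74.5, 71.0 and 70.6 CPM against 95.4, 88.5 and 88.0 CPM in untreated ones (-0.33). Atp5s did not pass without the stimulated library of 15 min, 30 min, 1 h, 3 h or 6 h (-0.57 to -0.47), or the untreated one of 15 min, 30 min, 3 h or 6 h (-0.63 to -0.59). Cox6b1 in stimulated libraries did not pass without that of 6 h (0.28). The counts of members that rose depended on single libraries. In stimulated libraries they were 11, 10 and 8 without the library of 30 min, 1 h or 6 h, and in untreated libraries 4, 0, 4, 0 and 1 without that of 15 min, 30 min, 1 h, 3 h or 6 h. With library totals as the only scaling 6 rose and 5 fell in stimulated libraries, and 4 rose in untreated ones.

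From the middle to the late phase 39 members rose and 2 fell in stimulated libraries, against 11.5% and 10.1% of all genes. In untreated libraries 31 rose and 2 fell, against 6.19% and 5.83%. The members that fell were Cox6a2 and Ndufaf1 in both arms. Uqcrh rose by 0.66 in stimulated and 0.72 in untreated libraries at this step, and Cox7b by 0.58 and 0.65. Uqcrh did not pass without the untreated library of 3 h (0.70). Without the stimulated library of 2, 3 or 24 h the members that rose numbered 16, 17 and 15, and without the untreated library of 2, 3 or 24 h they numbered 3, 1 and 4. In the same fits Cox6a2 and Ndufaf1 did not pass, nor did they without the untreated library of 48 h, and Ndufaf1 did not without the stimulated library of 48 h or the untreated one of 30 min. With sequencing lane as an additional term the members that rose numbered 14 in stimulated and 0 in untreated libraries, and without the filter on low counts 15 and 9.

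The late minus early change, in contrast, was present within single sequencing lanes. In stimulated libraries of lane 2 (12 and 24 h over 1 h) the median member had a log2 ratio of 0.44, and in lane 4 (48 h over 30 min) 0.37. In untreated libraries it was 0.35 in lane 1 (12 and 24 h over 15 min and 1 h) and 0.37 in lane 3 (48 h over 30 min). Between 74 and 78 of the 85 members were above 0 in each of these. The median of all 9580 genes of at least 5 mean CPM was 0.05 in lane 2 and 0.02 in lane 4 of stimulated libraries. It was 0.03 in lane 1 and 0.0001 in lane 3 of untreated libraries. Lanes 3 and 4 compare 1 library with 1 library here, and none of these ratios has a test. With lane in the fit 66 members rose in stimulated and 64 in untreated libraries, the same genes as without it. Cycs was above 0 in each lane, at 1.43 and 0.93 in stimulated and 1.13 and 0.79 in untreated libraries, and Cox6a2 below 0, at -2.38 and -1.25 in stimulated and -2.14 and -2.23 in untreated libraries.

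Across the 20 libraries most members varied together. For 66 of the 85 the correlation r of their log2 level with the mean of the other members was above 0.8, and the median r was 0.92. It was below 0 for 6 members, Cox6a2 (-0.93), Atp5s (-0.85), Ndufaf1 (-0.72), Ndufa6 (-0.52), Cox7a2l (-0.32) and Atp5l (-0.26). The libraries share animals, lanes and scaling, and the values are a description over 1 time course in each arm. As the mean of the members rose over time, r in part restates that rise, and r of other genes is not given here.

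Stimulated and untreated libraries differed little in these genes. In the early phase 1 member was higher and 0 lower in stimulated libraries, against 0.598% and 1.64% of all 12042 genes tested. In the middle phase 3 were higher and 0 lower, against 10.2% and 10.3%, and in the late phase 9 were higher and 2 lower, against 17.8% and 18.3%. The shares of members were thus below those of all genes in the middle and late phases. The median log2 fold change of the members, stimulated over untreated, was 0.01, 0.06 and 0.05 in the 3 phases. At no time was a member over 2-fold apart between the arms, while 485 of 9580 genes were at 24 h and 441 at 48 h. Only Cox6a2 at 48 h, with 10.8 CPM in the stimulated and 5.41 CPM in the untreated library, was over 1.5-fold apart.

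**Figure D3:**
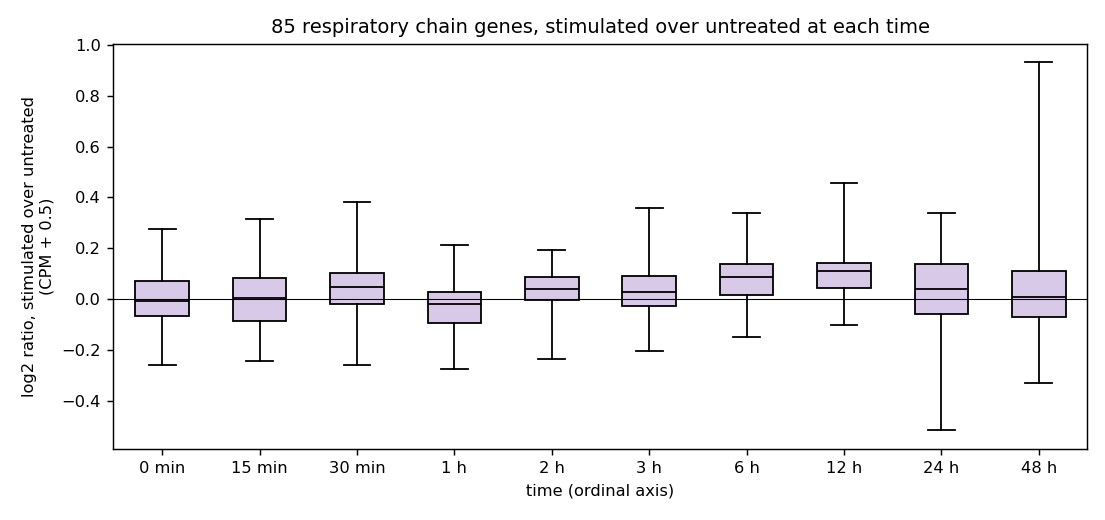
Log2 ratio of CPM plus 0.5, stimulated over untreated (vertical axis), of the 85 members at each of the 10 times on an ordinal axis. Boxes span the quartiles with the median as a line and whiskers reach the lowest and highest member; medians lie between -0.02 at 1 h and 0.11 at 12 h, and the highest member at 48 h is Cox6a2 at 0.93.

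Cycs was higher in stimulated libraries in the middle phase, with 87.3, 103 and 135 CPM against 76.5, 88.8 and 106 CPM (0.25 ± 0.07; adjusted p = 0.0234). In the late phase it had 152, 168 and 114 CPM in stimulated and 125, 138 and 86.1 CPM in untreated libraries (0.31 ± 0.07; adjusted p = 0.00391). It was higher in the stimulated library at each of these 6 times. Uqcrc2 was higher in both phases as well, with 343, 393 and 338 CPM in stimulated and 287, 348 and 322 CPM in untreated late libraries (0.16 ± 0.04; adjusted p = 0.0162). Ndufa4 was higher in the middle phase (0.14 ± 0.04; adjusted p = 0.0386).

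Subunits or factors of complex I were among the members called in the late phase, in both directions. Of all genes tested, 17.8% were higher and 18.3% lower, shares above those of the members. Of the 11 members called in this phase, 0 passed under every one of 17 settings. Ndufaf2 had 49.5, 49.4 and 37.1 CPM in stimulated and 35.9, 39.5 and 31.9 CPM in untreated libraries (0.33 ± 0.06; adjusted p = 0.00254). Ndufv3, an accessory subunit of the NADH-binding arm, had 52.9, 73.2 and 95.5 CPM in stimulated and 49.1, 59.1 and 64.2 CPM in untreated libraries (0.32 ± 0.08; adjusted p = 0.00646). Ndufc2, an accessory subunit of the membrane arm, had 84.4, 98.9 and 95.7 CPM in stimulated and 65.5, 86.7 and 78.7 CPM in untreated libraries (0.27 ± 0.06; adjusted p = 0.00661). Each was higher in the stimulated library at all 3 late times, and the ranges of Ndufaf2, Ndufv3 and Ndufc2 in the arms overlapped across times. Ndufs4 was higher by 0.16. Cox6c was higher by 0.16 and Sdhd by 0.13. Lower in late stimulated libraries was Atp5sl, which acts in the assembly of complex I despite its name, with 32.7, 28.6 and 28.4 CPM in stimulated and 35.1, 35.9 and 35.9 CPM in untreated libraries (-0.26 ± 0.06; adjusted p = 0.00654). Also lower was Ndufb8, of the membrane arm, with 92.6, 109.9 and 92.7 CPM in stimulated and 98.3, 119.7 and 104 CPM in untreated libraries (-0.14 ± 0.04; adjusted p = 0.022).

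In the early phase the member called was Ndufb3, a small membrane arm subunit, with 47.8, 46.9 and 44.2 CPM in stimulated and 38.3, 36.5 and 38.0 CPM in untreated libraries (0.30 ± 0.06; adjusted p = 0.0385). It already stood at 45.2 CPM in the stimulated and 38.7 CPM in the untreated library at 0 min. Relative to the 0 min pair 0 members passed in the early, middle and late phases, and 0 passed without pairing by time. Ndufb8 had 72.6 CPM in the stimulated and 86.9 CPM in the untreated library at 0 min, and its late difference relative to that pair was 0.13 (adjusted p = 0.404). Single pairs decided several of these counts. Without the 24 h pair 5 members were higher and 0 lower in the late phase, and without that of 12 or 48 h 4 and 1 were lower. Cox6c and Uqcrc2 did not pass without the 12 h pair (0.16 and 0.12) or the 24 h pair (0.17 and 0.16). Sdhd did not pass without that of 15 min, 1 h, 12 h or 24 h (0.13, 0.13, 0.11 and 0.14). Ndufb8 did not pass without that of 24 or 48 h (-0.13 and -0.12), nor Atp5sl without that of 24 h (-0.22). Ndufs4 did not pass without the pair of 15 min, 30 min, 1 h, 2 h, 24 h or 48 h. In the middle phase 0 were higher without the pair of 2, 3 or 6 h, 1 without that of 30 min, 1 h or 24 h, and 6 without that of 48 h. Ndufb3 was not called without the pair of 15 min, 30 min, 1 h, 2 h, 3 h or 24 h. With library totals as the only scaling 5 members were higher and 5 lower in the late phase, and 0 higher and 2 lower in the middle phase.

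The late minus early change itself differed between the arms for 4 members, with 0 in the other direction, against 10.2% and 9.52% of all genes. The difference, stimulated minus untreated, was 0.36 ± 0.10 for Ndufaf4 (adjusted p = 0.0262), 0.25 ± 0.06 for Sdhd (adjusted p = 0.0139), 0.20 ± 0.06 for Cox5a (adjusted p = 0.0369) and 0.19 ± 0.06 for Uqcrh (adjusted p = 0.0481). Ndufaf4 had 72.6, 73.2 and 49.1 CPM in late and 50.7, 53.3 and 60.8 CPM in early stimulated libraries. It had 64.9, 72.8 and 37.7 CPM in late and 57.0, 64.0 and 66.5 CPM in early untreated libraries. For all 4 genes the early values were lower in the stimulated than in the untreated library at each of the 3 early times. With lane as a term, or without pairing by time, 0 members passed, and without the pair of 15 min or 1 h 0 passed and without that of 30 min 2. Cox5a also did not pass without the pair of 12 or 24 h (0.20 each), nor Uqcrh without that of 2, 24 or 48 h (0.19 each).

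**Figure D4:**
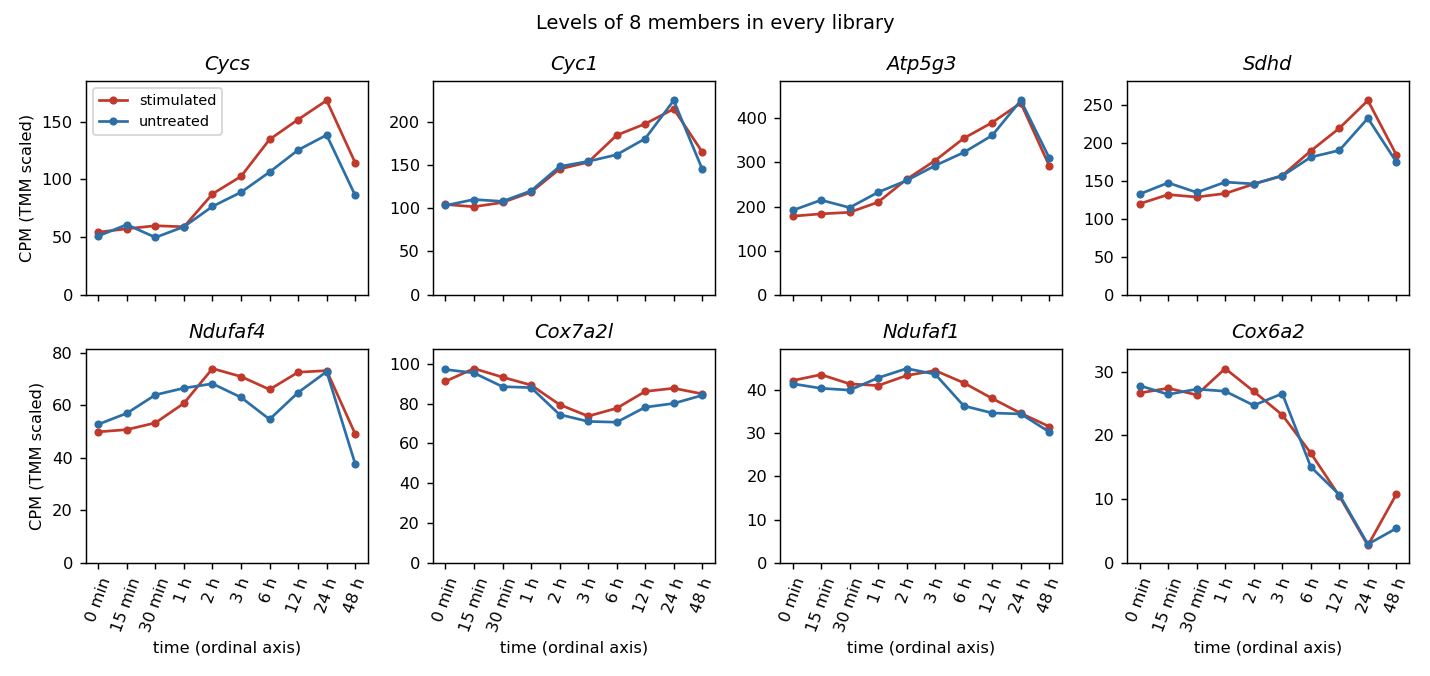
CPM after TMM scaling (vertical axis, from 0) of 8 members at each of the 10 times on an ordinal axis, stimulated libraries in red and untreated ones in blue, 1 point per library. Cycs reaches 168 CPM in the stimulated and 138 CPM in the untreated library at 24 h, Cox7a2l is lower in the middle phase, and Cox6a2 falls to 2.72 and 2.91 CPM at 24 h.

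Other genes of mitochondrial metabolism were read from lists. Of all genes tested, 29.2% were higher and 25.7% lower in the late than in the early phase in stimulated libraries. In untreated libraries these shares were 22.6% and 20%. Of 17 genes of mitochondrial exchange and import 15 rose and 0 fell in each arm between the early and the late phase, with median log2 fold changes of 0.57 in stimulated and 0.46 in untreated libraries. Phb, an inner membrane scaffold protein, rose most, by 1.32 ± 0.17 and 1.08 ± 0.17. Of 21 genes of the citric acid cycle and pyruvate dehydrogenase 13 rose and 0 fell in stimulated libraries, and 14 rose and 1 fell in untreated ones. Idh3a, a subunit of the NAD-dependent isocitrate dehydrogenase, rose by 1.27 and 1.16, and Mpc1, a pyruvate carrier subunit, fell by 0.28 in untreated libraries.

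For the lists of assembly genes the shares of all genes were again 29.2% higher and 25.7% lower in stimulated and 22.6% and 20% in untreated libraries. Of 21 assembly genes of complexes III and IV 9 rose and 2 fell in stimulated and 8 rose and 0 fell in untreated libraries, with Uqcc1 highest at 0.81 and 0.68. Of 7 other assembly genes of complex I 4 rose and 1 fell in stimulated and 3 rose and 1 fell in untreated libraries. Acad9 rose by 1.39 and 0.83, and Nubpl, which delivers iron-sulphur clusters, fell by 0.39 in each arm. Of 4 assembly and inhibitor genes of the synthase 1 rose and 1 fell in stimulated libraries and 1 rose and 0 fell in untreated ones. Atpaf2, which assembles the F1 head, rose in both arms, by 0.86 ± 0.20 in untreated libraries. Of 12 genes of ubiquinone synthesis 5 rose and 3 fell in each arm, with Pdss1, which builds the side chain of ubiquinone, at 1.22 and 0.87 and Adck3 at -1.94 and -0.65.

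Of 13 regulators of mitochondrial biogenesis 2 rose and 2 fell in stimulated libraries, and 2 rose and 1 fell in untreated ones. Their shares were below those of all genes, which were 29.2% higher and 25.7% lower in stimulated and 22.6% and 20% in untreated libraries. Nrf1, the factor of the motif searched, rose by 0.86 ± 0.18 and 0.80 ± 0.18. Tfb1m, a mitochondrial ribosomal RNA methyltransferase, fell by 0.87 and 0.59. Gabpa had -0.39 ± 0.14 in stimulated (adjusted p = 0.0271) and -0.33 ± 0.14 in untreated libraries (adjusted p = 0.0611). Tfam, which packs mitochondrial DNA, had 0.04 and 0.03. Of 15 genes of mitochondrial DNA replication and expression 5 rose and 2 fell in each arm, against the same shares of all genes.

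Among genes other than the members, the change over time was lower for longer transcripts, while the members had similar medians at all lengths. Members of 1000 to 2000 bases had a median late minus early log2 fold change of 0.43 in stimulated and 0.38 in untreated libraries. Those of 2000 to 4000 bases had 0.40 in untreated libraries. The 47 members under 1000 bases had a median late minus early log2 fold change of 0.41 in stimulated libraries and 83.0% were higher, against 0.16 and 36.7% for other genes of that length. The 11 members of 2000 to 4000 bases had a median of 0.43, against 0.01 for other genes, and the other genes over 4000 bases had -0.12. In untreated libraries the 47 short members had 0.39 and other short genes 0.11. The part of length in the change was not otherwise tested.

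Totals per library ran from 36873155 to 60918651 counts, so that 3 counts corresponded to between 0.0492 and 0.0814 CPM. Stimulated and untreated libraries of a given time always ran in different sequencing lanes. Of the B cell markers, Ms4a1 had between 265 and 495 CPM in stimulated and between 441 and 597 CPM in untreated libraries, and Cd79a between 218 and 342 CPM and between 217 and 317 CPM. Cd79b had between 168 and 284 CPM and between 230.0 and 309 CPM. The 5 T cell markers summed to between 1.19 and 6.23 CPM and between 1.33 and 6.49 CPM, little for whole spleen, which holds many T cells. The monocyte and macrophage markers summed to between 39.5 and 97.9 CPM in stimulated and 25.7 and 62.3 CPM in untreated libraries, and S100a8, S100a9, Ly6g, Pf4, Ppbp and Ncr1 were at the floor. Of the plasma cell markers Igj, the joining chain of antibodies, had a median of 400.4 CPM in stimulated and 451 CPM in untreated libraries and Prdm1 14.8 and 25.8 CPM, while Sdc1 was near 0, with medians of 0.0432 and 0.0405 CPM. The part of these cell types in the members' changes was not tested.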

How the data were processed

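Poly-A messenger RNA libraries (TruSeq, per the labels' protocols) of mouse spleen were deposited as raw counts per gene, 1 table per library. Per the submitters' processing notes the authors used STAR, HTSeq and GRCm38.p3 (mm10); versions, settings and strand: not given in the sources used here. 

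Members, functional classes and gene lists were chosen with earlier results of these data known. CPM values were scaled by TMM. A filter of 1 CPM or more in 3 or more libraries left 12042 genes for the fit of the 18 libraries past 0 min and 12139 for the fit of all 20, and all 85 members passed it. The test was the quasi-likelihood F-test of edgeR 4.0.16 (R 4.3.3) with Benjamini-Hochberg adjustment at 0.05. Stimulated over untreated was fitted within phases with time as a factor, 6 residual degrees of freedom. Change within arms was fitted over 8 groups of arm and phase, 12 residual degrees of freedom. The SE is the log2 fold change divided by the square root of F. The fits were tested on simulated counts. Depth was 36873155 to 60918651 counts per library, and floors of 3 counts cover counting error only.

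Genes named are, per comparison and class, the 2 largest changes in each direction past the threshold, fixed anchors such as Sdha to Sdhd and Atp5g1 to Atp5g3, and the 5 highest and 5 lowest members by CPM. Genes left out by the level rule, Uqcrq and Ndufs4, and list genes other than the largest change of their list were picked after their values were seen. Transcript lengths, overlaps and shared 50-base stretches come from GENCODE vM21, which lacks an entry for Atp5sl, and promoters from RefSeq on GRCm38.p6. Alternatives were RLE size factors, library totals, no filter, a filter of 5 CPM, DESeq2 1.42.0, lane, no pairing by time, the 0 min pair as baseline, and each library or time left out. A fit with lane and no pairing by time was added after the data had been seen. Results of 1 member and 1 marker are not reported here.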

Additional observations from a re-analysis of the deposited data

Results flagged for a closer look

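For 8 of 170 sets of 10 libraries (each member in each arm, 4.71%, where chance gives about 5%), the highest library stood apart from the next. In each of these sets the 10 libraries are 10 times and not replicates. In untreated libraries Uqcrfs1 reached 169 CPM (next 142), Atp5g1 112 CPM (next 84.0), Cox7c 68.4 CPM (next 57.4), Ndufab1 29.3 CPM (next 21.9) and Ndufaf6 23.5 CPM (next 18.5). Ndufa10 reached 170.3 CPM in stimulated libraries (next 139). Atp5d, the delta subunit of the F1 stalk, stood apart in both arms, at 125 CPM in stimulated (next 112) and 131 CPM in untreated libraries (next 113).

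The late minus early change differed between stimulated and untreated libraries by a test of the difference for Ndufaf4 (log2 0.36), Sdhd (0.25), Cox5a (0.20) and Uqcrh (0.19). In each case the change was the more positive in stimulated libraries. Of all genes tested, 10.2% differed in this direction and 9.52% in the other. Of these 4 members 0 passed under every one of 17 settings, and 0 passed with lane as a term or without pairing by time. Their early values were lower in the stimulated than in the untreated library at each early time.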

How the results depend on the processing

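The late minus early counts of members that rose kept within 1.5 times of 66 in stimulated and 64 in untreated libraries under all alternatives run. Leaving out 1 library gave 55 to 67 and 47 to 66 that rose and 2 to 3 and 3 to 4 that fell. Of the members called in this comparison 52 of 69 in stimulated and 44 of 68 in untreated libraries passed under every one of 24 settings. Library totals as the only scaling gave 5 that fell in stimulated libraries, and no filter 2 that fell in untreated ones.

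Other counts depended on settings, and the cause was not tested. For middle minus early, library totals gave 6 higher and 5 lower in stimulated and 4 higher in untreated libraries, and no filter 0 lower in stimulated and 5 higher and 1 lower in untreated ones. Leaving out 1 library gave 8 to 25 higher and 1 to 3 lower in stimulated, and 0 to 12 and 1 to 4 in untreated libraries. For late minus middle, no filter gave 15 higher and 1 lower in stimulated and 9 higher and 1 lower in untreated libraries, and lane 14 higher and 1 lower, and 0 and 0. Leaving out 1 library gave 15 to 50 higher and 0 to 2 lower, and 1 to 40 and 0 to 2.

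For stimulated over untreated, 0 members were called early, middle and late relative to the 0 min pair, without pairing by time, and with lane and no pairing. Library totals gave 0 higher and 2 lower in the middle and 5 higher and 5 lower in the late phase. No filter gave 1 higher in the middle and 1 lower in the late phase, and DESeq2 1 lower late. For the late minus early difference no filter gave 2 higher, and lane, no pairing, and lane without pairing 0. Leaving out 1 time gave 0 to 1 higher early, 0 to 6 in the middle, 5 to 11 late with 0 to 4 lower, and 0 to 6 for the difference. Ndufb8 changed sign relative to the 0 min pair (0.13). Within phases lane could not be fitted together with time. No paired analysis was possible because the labels number no replicates, apart from matching libraries by time. Each arm is 1 animal, and lower members such as Atp5l (5.30 CPM) rest on fewer counts.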
